A study of Nothobranchius furzeri with 24 samples.

Results

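The late fallers are genes of the turquoise killifish brain whose level was about the same at 39 and 73 days post hatch (dph) and lower at 108 dph. They were chosen from RPM (counts scaled to the reads assigned to genes in each library), with the level of a gene at an age taken as the median over 8 fish of log2(RPM + 0.5). The early change A is the level at 73 dph minus that at 39 dph, and the late change B is the level at 108 dph minus that at 73 dph. A gene had to have a median of at least 1 RPM at each age, A between -0.15 and 0.15, B of -0.3 or lower, and B below 0 in the 4 females alone and in the 4 males alone. Of 26739 genes in the table, 16954 passed the level filter and 331 met all conditions. The 150 with the lowest B are described here.

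The fish were wild Nothobranchius furzeri, an annual fish of temporary African ponds, with the label strain MZM_A41, and they received no treatment. For each of the ages 39, 73 and 108 dph there were poly(A) libraries of the whole brain from 4 females and 4 males, 24 libraries in 6 groups. Other fish were caught for each age as the season went on, and the effects of age and season cannot be told apart. Reads assigned to genes ranged from 4595506 to 19346170 per library, and both libraries below 14219725 came from 39 dph (female replicate 4 at 4595506 and male replicate 4 at 10019750).

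The brain of a teleost fish keeps dividing progenitor cells throughout life, many of them radial glia, which give rise to neurons and glia. Dividing cells make cyclins, mitotic kinases and kinetochore proteins in bursts, so the messages of these genes tend to rise and fall together. The brain also makes sterols and fatty acids, which go into membranes and myelin. In whole brain RNA, fewer cells of a type and less RNA per cell cannot be told apart.

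Because A and B chose the genes, the age differences below are a description of the chosen genes. B of the 150 late fallers had a median of -0.46, which is a fall of 27.1%, and ranged from -1.12 (a fall of 54.1%) to -0.38 (a fall of 23.2%). Their A ranged from -0.14 to 0.15. Over the 16954 genes past the level filter the median B was 0.0021 and the median A 0.012, and 6.19% of these genes had B of -0.3 or lower. Among the 8010 genes with A inside the window, 355 had B of -0.3 or lower and 454 had B of 0.3 or higher. The late fallers are therefore the lower edge of a cloud that extended at least as far upward as downward.

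**Figure D1:**
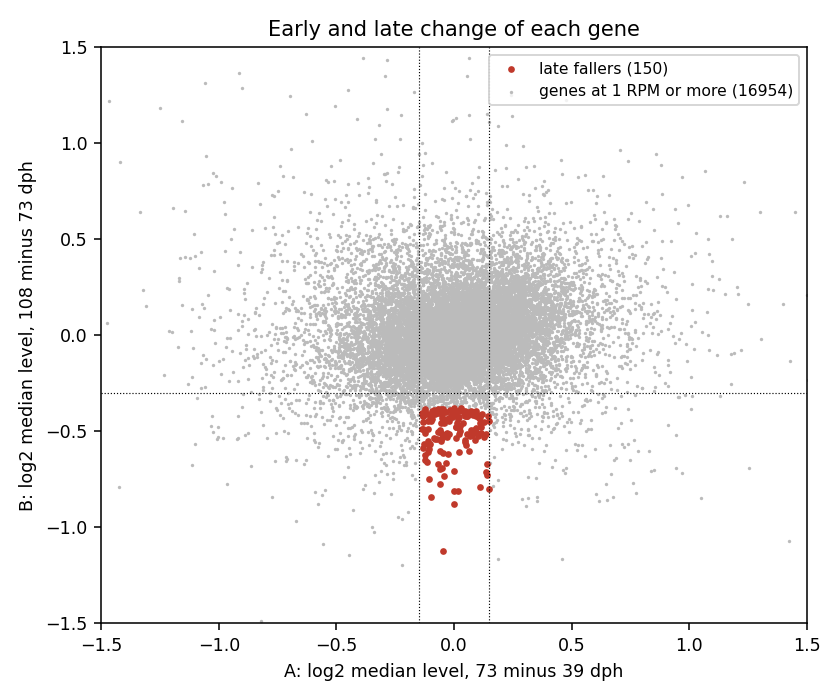
Each grey point is 1 of the 16954 genes past the level filter and each red point 1 of the 150 late fallers, with the early change A (73 minus 39 dph, log2) on the horizontal axis and the late change B (108 minus 73 dph, log2) on the vertical axis. Dotted lines mark A of -0.15 and 0.15 and B of -0.3, 31 genes lie outside the plotted range, and the red points fill the strip below the limit down to -1.12.

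The last genes taken were Nfu_g_1_022574, Nfu_g_1_004016 and Nfu_g_1_004511, with B of -0.383, -0.381 and -0.380. The first genes left out were Nfu_g_1_007215, Nfu_g_1_021961 and Nfu_g_1_005657, with B of -0.380, -0.377 and -0.377. On the other limit, MSMO1 was taken with A of 0.146, whereas the immediate-early gene EGR4 was left out with A of 0.152 although its B was -0.66. The values on both sides of each border lay closer together than the spread between like fish, given further on.

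Of the 150 late fallers, 50 (33.3%) carry a human gene name in the study's own tables, against 42.1% of the genes past the level filter, and the other 100 are known here by locus only. The median length of the late fallers was 2586.5 bases, against 2830 over the genes past the level filter. Per length of gene, the late fallers had a median of 4.70 RPKM (RPM per kilobase) at 39 dph, 4.68 RPKM at 73 dph and 3.22 RPKM at 108 dph. The median over the genes past the level filter was 8.46, 8.53 and 8.59 RPKM at these ages. The late fallers were thus mostly of lower level than the typical brain gene, with a few exceptions. The highest per length was FABP7 at 3625 RPKM at 73 dph, followed by NPY at 129 RPKM.

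Seen fish by fish, the median over the set was lower in every old brain. This is a description, because B from these same fish chose the genes and a median over 150 genes evens out single ones. The median over the 150 genes of the level relative to each gene's median at 73 dph lay between -0.097 and 0.073 in the 8 fish of 39 dph, between -0.025 and 0.044 in those of 73 dph and between -0.54 and -0.39 in those of 108 dph. The youngest group's lowest value belonged to female replicate 4, the shallowest library. In the fish of 108 dph, between 128 and 143 of the 150 genes were below their 73 dph median, compared with 56 to 95 genes in the fish of 39 dph. The summed level of the set was 4571 to 5821 RPM at 39 dph, 5024 to 5482 RPM at 73 dph and 3370 to 4545 RPM at 108 dph.

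**Figure D2:**
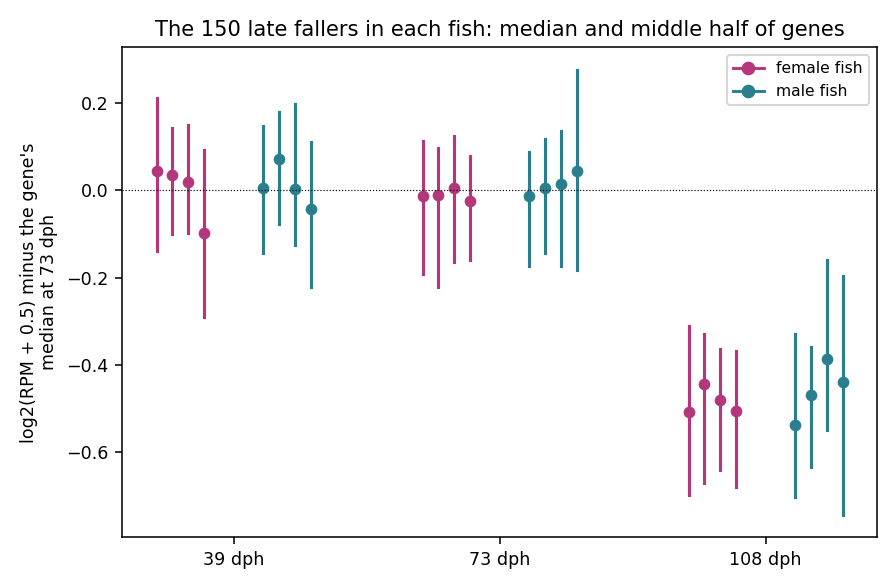
For each of the 24 fish, the point is the median and the line the range from the lower to the upper quartile of the 150 late fallers, as log2(RPM + 0.5) minus each gene's median at 73 dph, with females left and males right at each age. All 8 fish of 108 dph sit between -0.54 and -0.39, below every fish of the other ages, a description because B chose these genes.

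Single genes mostly overlapped between 108 and 73 dph, unlike the median over the chosen set. For 11 of the 150 late fallers all 8 fish of 108 dph lay below all 8 fish of 73 dph, and 0.619% of the genes past the level filter did so. In edgeR's quasi-likelihood test, 83 late fallers were called lower at 108 than at 73 dph at a false discovery rate (FDR, Benjamini-Hochberg adjusted over 19358 genes) of 0.05 and none was called higher, with none above 0 at an unadjusted p below 0.05 and 96 lower and none higher by DESeq2. Of all genes tested, 5.01% were called lower in this step by edgeR, and DESeq2 called 1191 of 19265 lower. The 83 called genes had a median of 13.2 RPM at 73 dph and a median SD between like fish of 0.22 on the log2 scale, while the 67 others had 6.36 RPM and an SD of 0.35. Between 39 and 73 dph, 1 late faller was called, RNF165 (10.3% of all genes were called lower in this step). Between 108 and 39 dph, 104 were called lower, beside 19.0% of all genes. These counts follow from the choice of the genes, and nothing is read from them.

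Genes of mitosis were among the largest named groups. The late fallers held 5 genes of the cell cycle and mitosis list. CCNB3, a B-type cyclin, ranged from 3.48 to 7.60 RPM at 39 dph with a median of 5.49. It ranged from 3.60 to 7.05 RPM at 73 dph with a median of 5.09, and from 1.85 to 4.39 RPM at 108 dph with a median of 2.63. Of the 8 old fish, 5 were below every fish of 73 dph, so the groups overlapped, and the fitted log2 fold change of 108 versus 73 dph was -0.82 (SE 0.19).

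PLK1, the kinase that drives entry into and progress through mitosis, had medians of 14.4, 13.2 and 8.23 RPM at 39, 73 and 108 dph. Its range was 9.36 to 17.3 RPM at 39 dph, 9.39 to 16.0 RPM at 73 dph and 5.74 to 13.0 RPM at 108 dph, and 7 of 8 old fish were below every fish of 73 dph. CDK1, the cyclin-dependent kinase of mitosis, had medians of 13.1, 12.9 and 8.23 RPM, with 5.52 to 11.6 RPM at 108 dph and 9.94 to 18.0 RPM at 73 dph. Here 6 of the 8 old fish were below every fish of 73 dph.

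CENPF, a protein of the kinetochore, had medians of 30.1, 27.5 and 18.4 RPM at 39, 73 and 108 dph, and 7 of 8 old fish lay below the lowest fish of 73 dph. A second locus named CENPF, Nfu_g_1_004256, was not among the late fallers and had 9.67, 11.3 and 13.0 RPM, so the name alone does not fix the pattern. NUF2, which links kinetochores to the spindle, had medians of 8.13, 7.53 and 4.94 RPM, but its ranges of 4.02 to 9.46 RPM at 108 dph and 3.99 to 10.2 RPM at 73 dph overlapped almost fully. MASTL, a kinase that keeps mitotic substrates phosphorylated, is outside the list and had medians of 3.69, 3.69 and 2.07 RPM, with 5 of 8 old fish below the lowest fish of 73 dph.

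The mitotic late fallers are part of a wider group, picked from it by the limits on A and B. Of the 50 genes of the cell cycle and mitosis list that were tested, 18 were called lower at 108 than at 73 dph by edgeR and none higher, with 2 higher at an unadjusted p below 0.05 and 1 by DESeq2 (5.01% of all genes and 7.72% of genes with a human name were called lower), and the median B of the list was -0.31. All 5 mitotic late fallers had A below 0, from -0.13 (CENPF) to -0.027 (CDK1), inside the window by choice. The median A of the list was -0.20. In the early step, 14 of the 50 were called lower and 3 higher at 73 than at 39 dph. Of all genes 10.3% and 10.4% were, and of genes with a human name 18.1% and 18.7%. The proliferation marker MKI67 showed both steps, with medians of 34.0, 23.1 and 13.0 RPM. Without the late fallers, 14 of 45 genes were called lower in the late step. The list was drawn up with earlier results on these fish known, and part of the gene names come from lists the study chose on these samples.

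Between like fish the mitotic late fallers moved together. Over the 24 fish, after the mean of each of the 6 groups was removed, the 10 pairs among CCNB3, PLK1, CDK1, CENPF and NUF2 had a mean correlation of 0.62, from 0.31 (CENPF with NUF2) to 0.85 (CCNB3 with PLK1). The same measure over all 11175 pairs of late fallers averaged 0.025, and over all pairs of genes past the level filter 0.015. The set as a whole is therefore no single block of genes that vary together among fish of 1 age and sex. These correlations share the same libraries and scaling. The 2 shallowest libraries, female and male replicate 4 of 39 dph, had the lowest mean level of the mitotic genes in their groups, -0.31 and -0.094 on the log2 scale relative to 73 dph, and also the lowest mean level of the lipid genes described next, -0.32 and -0.25. Without these 2 libraries, an alternative chosen after seeing the data, the mean correlation of the mitotic pairs was 0.60 over 22 fish. The mean level of the mitotic genes ranged from -0.94 to -0.0032 at 108 dph and from -0.46 to 0.40 at 73 dph, and 3 of the 8 old fish lay inside the range of 73 dph.

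Enzymes of sterol and fatty acid synthesis were the other named group of this size, also with 5 late fallers. ACSL3, which activates long-chain fatty acids, ranged from 5.44 to 12.1 RPM at 39 dph with a median of 9.57. It ranged from 7.81 to 13.4 RPM at 73 dph with a median of 9.59, and from 2.84 to 6.55 RPM at 108 dph with a median of 4.97. All 8 old fish were below all 8 fish of 73 dph, and the fitted log2 fold change of 108 versus 73 dph was -1.03 (SE 0.17).

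FADS1, a desaturase that makes polyunsaturated fatty acids, had medians of 272, 272 and 155 RPM at 39, 73 and 108 dph. It ranged from 181 to 355 RPM at 39 dph, from 246 to 374 RPM at 73 dph and from 117 to 221 RPM at 108 dph, again with no overlap between the old fish and those of 73 dph. Its fitted log2 fold change of 108 versus 73 dph was -0.80 (SE 0.13). The other 3 enzymes of the group overlapped between 108 and 73 dph.

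FASN, fatty acid synthase, had medians of 61.9, 59.3 and 38.9 RPM at 39, 73 and 108 dph, with 34.2 to 58.2 RPM at 108 dph and 37.3 to 74.6 RPM at 73 dph, and 4 of 8 old fish were below every fish of 73 dph. MSMO1 and CYP51A1, which take methyl groups off sterol precursors, had smaller values of B, -0.42 and -0.39. MSMO1 had medians of 37.03, 41.02 and 30.5 RPM, and 7 of its 8 old fish were below every fish of 73 dph, the exception being 108 dph male replicate 3 at 46.5 RPM. CYP51A1 had medians of 21.6, 20.2 and 15.2 RPM, with 5 of 8 old fish below the lowest fish of 73 dph.

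Most genes of the sterol and fatty acid list were lower at 108 than at 73 dph by the medians, but not all. Of its 22 genes, 19 had B below 0 and 13 had B of -0.3 or lower, beside 49.5% and 6.19% of the genes past the level filter. The 5 late fallers are among them by choice. Of the 22, 5 were called lower and 1 higher at 108 than at 73 dph by edgeR. Of all genes 5.01% and 4.27% were, and of genes with a human name 7.72% and 6.32%. At an unadjusted p below 0.05, 11 were lower and 1 higher, beside 2346 and 2230 of all 19358 genes tested. Of the 7356 genes with a human name, 1215 were lower and 1126 higher at this limit. DESeq2 called 5 lower and 1 higher, and the median B of the list was -0.34. Without the late fallers, 1 of 17 was called lower and 1 higher. The gene called higher was FDPS, an enzyme of the isoprenoid branch before squalene, with medians of 27.3, 27.5 and 42.4 RPM at 39, 73 and 108 dph and a fitted log2 fold change of 108 versus 73 dph of 0.43 (SE 0.13, edgeR FDR 0.036). SQLE, also of the sterol pathway, was called lower in the early step, with medians of 7.48, 3.48 and 2.36 RPM at 39, 73 and 108 dph. Among like fish the 5 lipid late fallers correlated less than the mitotic ones, with a mean of 0.28 over 10 pairs and values from -0.073 (FADS1 with FASN) to 0.58 (MSMO1 with CYP51A1). The 25 pairs between a mitotic and a lipid gene averaged 0.32. Without the 2 shallowest libraries these means were 0.23 and 0.26. The mean level of the 5 lipid genes ranged from -0.95 to -0.23 at 108 dph and from -0.14 to 0.13 at 73 dph. All 8 old fish lay below the range of 73 dph, a description because B chose these genes.

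**Figure D3:**
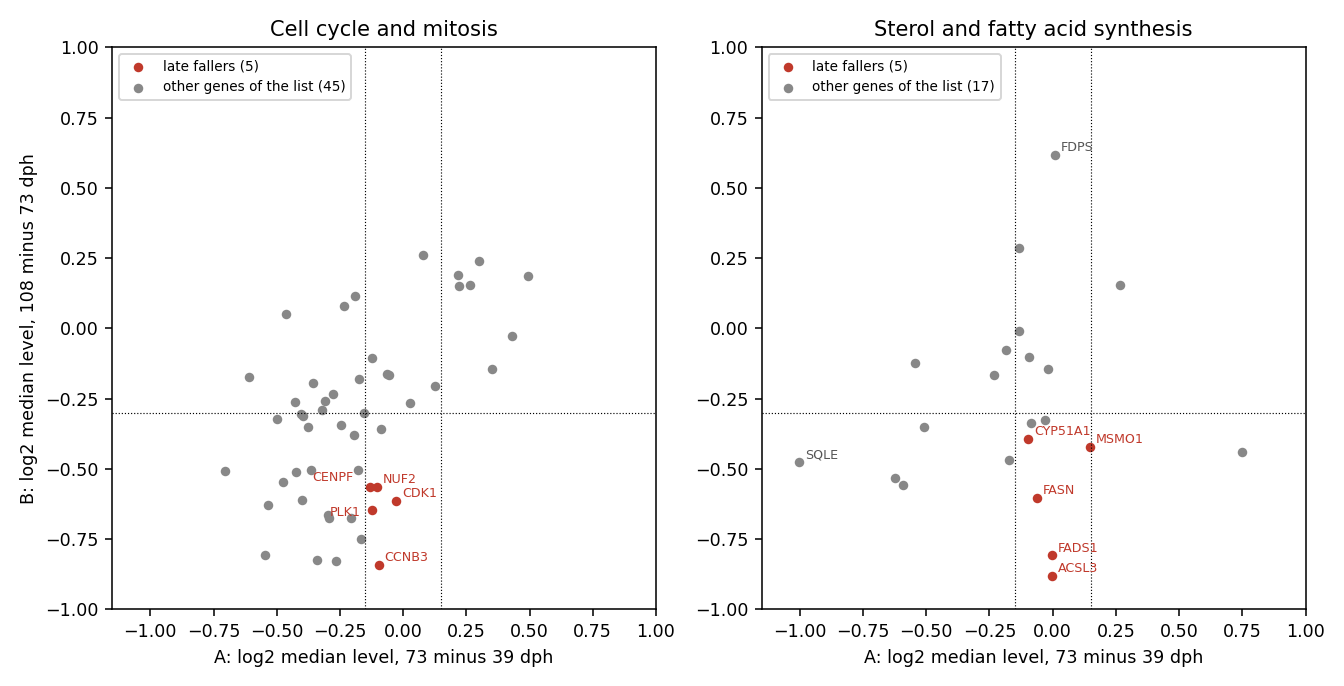
Early change A (horizontal, log2) against late change B (vertical, log2) for the 50 genes of the cell cycle list (left) and the 22 genes of the sterol and fatty acid list (right), with late fallers in red and other genes in grey. In the left panel 27 genes lie below the dotted limit of -0.3, most of them left of the window of flat early change, while in the right panel FDPS lies far above the others.

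FABP7, the brain fatty acid binding protein and a marker of radial glia, was the most abundant late faller per length. It ranged from 1024 to 1855 RPM at 39 dph with a median of 1318, from 1209 to 1639 RPM at 73 dph with a median of 1446, and from 690 to 1751 RPM at 108 dph with a median of 882. Of the old fish, 5 were below every fish of 73 dph, while 108 dph male fish reached up to 1751 RPM, above every fish of 73 dph. The fitted log2 fold change of 108 versus 73 dph was -0.47 (SE 0.16), weaker than B of -0.71 from the medians. The study's tables give this locus FABP7 as its human name but SMPDL3A as its killifish symbol, so the identity of the gene is uncertain. Among the 17 tested genes of the radial glia and astroglia list none was called lower or higher in the late step by edgeR (2 lower and 1 higher at an unadjusted p below 0.05, 1 each way by DESeq2), and the list without this locus summed to medians of 6233, 6131 and 5910 RPM at 39, 73 and 108 dph with ranges that overlapped. A second locus named FABP7, Nfu_g_1_015220, stayed in that sum and had medians of 154, 132 and 102 RPM, with an A of -0.22 that put it outside the window and a B of -0.37. Of the 16 genes of the list past the level filter, 9 had B below 0, against 49.5% of all genes past the filter, and the 2 with B of -0.3 or lower were the loci named FABP7.

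FOS, an immediate-early transcription factor whose message is made within minutes of neuronal activity, had wide ranges at every age. It ranged from 53.5 to 172 RPM at 39 dph with a median of 108, from 64.4 to 176 RPM at 73 dph with a median of 100.2, and from 36.3 to 108 RPM at 108 dph with a median of 63.3. Of the old fish, 5 were below the lowest fish of 73 dph. Of the 29 immediate-early and activity-regulated genes tested, 6 (20.7%) were called lower and 1 (3.45%) higher at 108 than at 73 dph by edgeR. Of all genes 5.01% and 4.27% were, and of genes with a human name 7.72% and 6.32%. FOS was not among the 6, with an edgeR FDR of 0.072. In the early step, 10 genes of the list (34.5%) were called lower and 1 (3.45%) higher. The shares were 10.3% and 10.4% over all genes and 18.1% and 18.7% over genes with a human name. NPAS4 had the lowest B of that list, -1.49, but had already an A of -0.82, and EGR1 had an A of 0.35 and a B of -0.74, so neither was flat before 73 dph.

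Receptors and a peptide of neurons were also among the late fallers. HTR1B and HTR2A, receptors for serotonin, had medians of 5.99, 6.33 and 4.36 RPM and of 12.4, 12.2 and 8.89 RPM at 39, 73 and 108 dph. For HTR1B 7 of 8 old fish were below every fish of 73 dph, with 3.72 to 5.08 RPM at 108 dph and 4.83 to 8.57 RPM at 73 dph. For HTR2A 1 of 8 was, since 1 fish of 73 dph stood at 7.85 RPM. Of the 18 genes of monoamine and acetylcholine signalling tested, 4 were called lower and none higher in the late step by edgeR. At an unadjusted p below 0.05, 1 was higher, and DESeq2 called none higher. Of all genes 5.01% were called lower, and of genes with a human name 7.72%. The 4 were the 2 serotonin receptors, MAOA, which breaks down monoamines, and CHRNA5, a subunit of nicotinic receptors. The 2 serotonin receptors were chosen for their low B. Without them, 2 of 16 were called lower. NPY, a peptide known for its effects on feeding, had medians of 76.1, 73.8 and 53.6 RPM, but its range at 108 dph, 23.2 to 139 RPM, held the whole range of 28.5 to 122 RPM at 73 dph.

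Among regulators of transcription and chromatin, CHD4, the helicase of the NuRD complex, had medians of 172, 165 and 125 RPM at 39, 73 and 108 dph, and 7 of 8 old fish were below every fish of 73 dph. In its list of histones and chromatin regulators, edgeR called 14 of 101 genes (13.9%) lower and 6 (5.94%) higher in the late step. Without CHD4, 13 of 100 were called lower, beside 5.01% of all genes and 7.72% of genes with a human name. SOX1, a transcription factor of neural progenitors, had medians of 22.8, 21.4 and 16.1 RPM, with 6 of 8 old fish below every fish of 73 dph. Of the 64 genes of neuronal differentiation and neurogenesis tested, 23 (35.9%) were called lower and none higher in the late step by edgeR (none higher at an unadjusted p below 0.05 or by DESeq2). The shares were 5.01% and 4.27% over all genes and 7.72% and 6.32% over genes with a human name. Of the 23, 15 were also called lower in the early step. Over all genes tested, 300 of the 969 called lower in the late step were. Over genes with a human name, 241 of 568 were. Without the late faller SOX1, 22 of 63 were called lower in the late step. SOX4 and SOX11, genes of newborn neurons, and DLL1, a Notch ligand, had loci with B of -0.83, -0.62 and -0.91, but with A of -0.56, -0.44 and -0.43. A second locus named SOX1 had an A of -0.32 and a B of -0.35 and was no late faller.

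RNF165, a ubiquitin ligase known in mice for its part in motor axon growth, had narrow ranges at every age. It had 102 to 118 RPM at 39 dph with a median of 108, 86.5 to 111 RPM at 73 dph with a median of 99.9, and 64.7 to 73.9 RPM at 108 dph with a median of 68.0. All 8 old fish were below all 8 fish of 73 dph, and the fitted log2 fold change of 108 versus 73 dph was -0.51 (SE 0.047). It was also the late faller with a call in the early step, where its log2 fold change of 73 versus 39 dph was -0.18 (SE 0.047).

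Other listed late fallers were each the only late faller of their list. SF3B3, a subunit of the splicing factor SF3B, had 101, 93.7 and 70.5 RPM at 39, 73 and 108 dph, and 7 of 8 old fish were below the 73 dph fish, whose range was 90.2 to 97.4 RPM. EPHB2, a receptor of axon guidance, had 81.8, 84.5 and 64.3 RPM, with 6 of 8 old fish below. DNAJC10, a co-chaperone of the endoplasmic reticulum, had 44.2, 42.7 and 31.1 RPM, with 5 of 8 below. HHIP, an antagonist of hedgehog ligands, had 35.5, 37.6 and 26.8 RPM, but no old fish was below the lowest fish of 73 dph, which stood at 12.5 RPM. NCAN, a proteoglycan of the neural matrix, had 17.7, 16.8 and 12.6 RPM with 2 of 8 below. GINS4, a subunit of the replicative helicase, had 6.63, 6.36 and 4.73 RPM with 5 of 8 below. In the DNA replication and repair list, to which GINS4 belongs, 2 of 33 genes (6.06%) were called lower in the late step by edgeR and 5 (15.2%) higher. The share called lower lay near those of all genes (5.01%) and of genes with a human name (7.72%). The shares called higher were 4.27% and 6.32% in these 2 sets. In the axon guidance list of EPHB2, 16 of 98 genes (16.3%) were called lower in this step and 1 higher. Without EPHB2, 15 of 97 were called lower. In the protein folding list of DNAJC10, 11 of 53 (20.8%) were called lower and 2 higher. Without DNAJC10, 10 of 52 were called lower. Of the list of SF3B3, 7 of 75 were called lower and 2 higher. Of those of HHIP and NCAN, 4 of 51 and 2 of 64 were called lower, and 4 and 2 higher.

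The remaining late fallers named for their low B or high level span unrelated functions. TRDN, triadin of the calcium release machinery of muscle, had medians of 22.0, 21.2 and 12.1 RPM at 39, 73 and 108 dph, with 4 of 8 old fish below every fish of 73 dph. SH3BGR had 54.1, 56.0 and 37.9 RPM with 4 of 8 below, and RTKN2 7.42, 6.98 and 4.64 RPM with 6 of 8 below. KIAA1549L had 275, 254 and 181 RPM with 6 of 8 below. The lowest B of all belonged to the unnamed locus Nfu_g_1_010728, at 7.13, 6.88 and 2.90 RPM with 6 of 8 old fish below every fish of 73 dph, and the unnamed Nfu_g_1_020493 had 4.20, 4.27 and 2.21 RPM with 5 of 8 below.

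**Figure D4:**
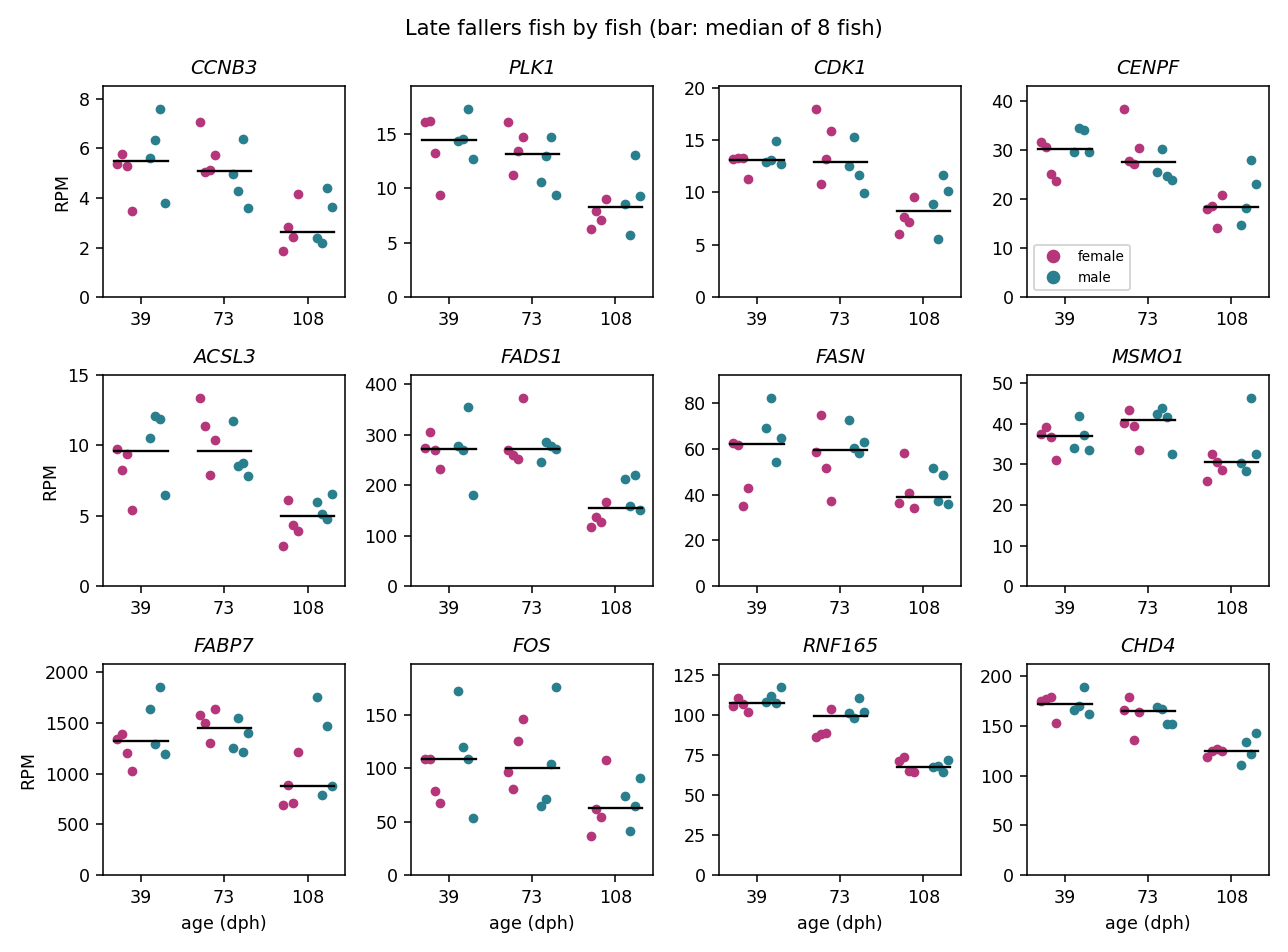
RPM of 12 named late fallers in each of the 24 fish, by age in dph, with females left and males right at each age and a bar at the median of 8 fish. ACSL3, FADS1 and RNF165 show no overlap between 108 and 73 dph, whereas FABP7 and FOS do.

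Sex was not used to choose the genes beyond the condition that B be below 0 in each sex. With both sexes and all ages in 1 model, none of the 150 late fallers was called between females and males by edgeR, 8 had an unadjusted p below 0.05, and DESeq2 called 1. Over all genes edgeR called 0.0517% and DESeq2 0.26%, and 7.46% had an unadjusted p below 0.05 by edgeR. The fitted difference, female minus male, had a median of -0.027 on the log2 scale over the late fallers and of -0.0027 over all genes tested, and it was below 0 for 90 and above 0 for 60 late fallers.

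The gene called by DESeq2 was NDE1, which acts at the centrosome and spindle in dividing neural progenitors, and it is named here after its values were seen. At 39 dph it had 3.02, 3.26, 4.38 and 4.66 RPM in females and 2.40, 2.97, 3.01 and 3.05 RPM in males. At 73 dph it had 3.45, 4.17, 4.78 and 5.20 RPM in females and 1.63, 1.83, 2.03 and 2.84 RPM in males. At 108 dph it had 1.57, 2.65, 3.88 and 4.78 RPM in females and 1.34, 1.52, 1.83 and 2.51 RPM in males. Females were above males with no overlap at 73 dph and with overlap at the other ages, and the log2 fold change of females over males was 0.79 (SE 0.16, edgeR FDR 0.091). Without 108 dph female replicate 4 this gene was called by edgeR.

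The late fall in each sex is given as a description, because the choice of genes used it. The condition that B be below 0 in each sex took out genes that fell in 1 sex only, so a difference between the sexes was narrowed beforehand and nothing is read from its size or from how few genes showed it. In the interaction of sex with the late step edgeR called none of the late fallers, and 0.00517% of all genes, with 6 late fallers and 5.08% of all genes at an unadjusted p below 0.05 and no late faller called by DESeq2. The median SE of the fitted difference of falls was 0.30 on the log2 scale, beside a median B of -0.46 over the late fallers.

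All 5 mitotic late fallers had a larger fall in females by the medians. B was -0.93 in females and -0.57 in males for CCNB3, -0.87 and -0.37 for PLK1, and -0.92 and -0.33 for CDK1. It was -0.65 in females and -0.29 in males for CENPF and -0.82 and -0.047 for NUF2. Since these 5 genes varied together between like fish, they are not 5 separate observations. Their mean level relative to 73 dph was -0.46 in 73 dph male replicate 4, the lowest of that age. In 108 dph male replicate 3 it was -0.0032, the highest of that age. The largest fitted difference of falls among them was -0.85 (SE 0.36) for NUF2. FABP7 had B of -0.95 in females and -0.22 in males, FADS1 -1.001 and -0.58, and ACSL3 -1.30 and -0.60. FASN (-0.51 in females and -0.53 in males), MSMO1 (-0.42 and -0.42) and CYP51A1 (-0.35 and -0.30) differed little between the sexes. NCAN went the other way, with -0.078 in females and -0.59 in males and a fitted difference of 0.47 (SE 0.19). The lowest edgeR FDR of the difference of falls over the late fallers was 0.95.

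At 108 dph alone, none of the late fallers was called between females and males by edgeR, 12 had an unadjusted p below 0.05, and DESeq2 called none. Over all genes 0.0103% were called and 7.37% had an unadjusted p below 0.05. FADS1 was among the 12, with a log2 fold change of females over males of -0.45 (SE 0.17, edgeR FDR 0.53). Its range was 117 to 167 RPM in females and 151 to 221 RPM in males of that age.

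**Figure D5:**
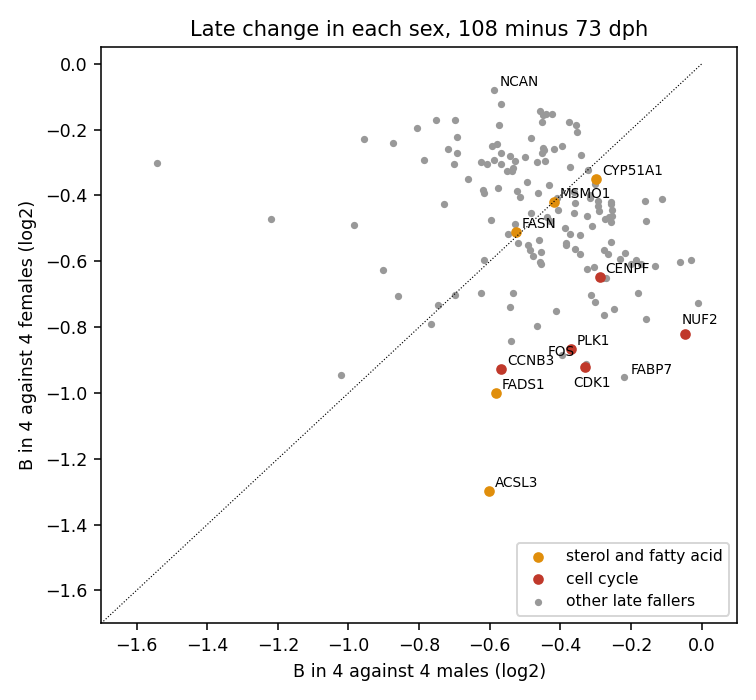
Late change B (108 minus 73 dph, log2) from the 4 females of each age (vertical) against that from the 4 males of each age (horizontal) for the 150 late fallers, with the line of equal change dotted. Of the 150 points, 82 lie below the line, on the side of a larger fall in females by the medians, among them the 5 mitotic genes (red) and ACSL3 and FADS1. By the fitted falls, which are not drawn, 75 genes fell more in females and 75 in males. All points lie below 0 in both sexes because the choice of genes required it.

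Like fish differed more in the late fallers than in the genes past the level filter. This is a description, because a choice by the lowest B can favour genes of wide spread, and nothing is read from it. The median SD of log2(RPM + 0.5) between fish of 1 age and sex was 0.23, 0.26 and 0.29 at 39, 73 and 108 dph over the late fallers and 0.18, 0.18 and 0.21 over the genes past the level filter. The late fallers also had fewer reads, with a median of 10.4 RPM at 73 dph against 22.3 RPM over the genes past the level filter. The part of the reads and of the choice in the wider spread was not tested.

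Marker lists of cell types were set beside the set, since a whole brain sample can hold other tissue. The 23 neuron markers summed to medians of 7251, 7170 and 6768 RPM at 39, 73 and 108 dph, and the 16 oligodendrocyte markers to 8511, 7920 and 6728 RPM, with ranges that overlapped between 73 and 108 dph for both lists. In the late step edgeR called 5 neuron markers (21.7%) and 2 oligodendrocyte markers (12.5%) lower and none of either list higher. Of all genes 5.01% were called lower and 4.27% higher, and of genes with a human name 7.72% and 6.32%. The 8 blood cell markers went the other way, with 190 to 232 RPM at 39 dph, 248 to 382 RPM at 73 dph and 323 to 391 RPM at 108 dph. The 13 muscle markers summed to medians of 818, 816 and 820 RPM at 39, 73 and 108 dph. Their highest sum was 1926 RPM, in 39 dph female replicate 4. GH1, the growth hormone of the pituitary, ranged from 1.87 to 3690 RPM among the fish of 39 dph, from 2.37 to 4233 RPM among those of 73 dph and from 2.16 to 4312 RPM among those of 108 dph, so pituitary RNA was present in some libraries of each age. The part of these in the fall of the late fallers was not tested.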

How the data were processed

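Single-end reads of stranded poly(A) libraries were turned into counts per gene by the authors. The submitters' processing notes name bcl2fastq 1.8.4 for base calls, TopHat2 2.1.0 for mapping (the study's methods give the hardmasked NFINgb genome and at most 1 place per read) and featureCounts 1.5.0 for sense reads over genes. Near-identical gene copies may thus have gained or lost counts. In the deposited tables, RPM equals counts divided by the reads assigned to genes (largest difference 4.91e-11), and RPKM is RPM divided by gene length.

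The late fallers were found from RPM with a pseudocount of 0.5. Counts were tested with edgeR 4.0.16 (R 4.3.3, TMM scaling, filterByExpr with a minimum count of 10) in an additive model of sex and age, and in a model of 6 group means for the interaction and for sex at 1 age. P-values were adjusted over all 19358 genes tested (FDR threshold 0.05). The standard error is the size of the log2 fold change over the square root of F. The scripts were tested on simulated counts. Alternatives were DESeq2 1.42.0, its size factors, other filters, removal of the trend over gene length, an FDR of 0.01, other settings of the rule, and leaving out fish.

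Gene names came from the study's tables (7368 loci with a human name), some of them lists chosen on these samples. The late fallers, the 33 gene lists and the tests were chosen with earlier results of these data known. Named were the 15 late fallers with a human name and the lowest B, the 5 with the lowest B whatever their name, the 5 named ones of highest RPM, those on a list, those called by sex and those at the border. Values of some single genes of the lists are not reported here.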

Additional observations from a re-analysis of the deposited data

Results flagged for a closer look

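In 10 of 111 sets of 8 fish (the 34 named late fallers, the summary over all late fallers, their sum and the reads per library at 3 ages), 1 fish stood apart from the other 7 by Dixon's ratio. Chance alone gives about 1 in 20, or 5.55. At 73 dph, FADS1 had 374 RPM in female replicate 4 (next 286 RPM), EPHB2 106 RPM in male replicate 4 (next 86.2 RPM) and Nfu_g_1_022574 14.3 RPM in male replicate 4 (next 10.9 RPM). CENPF with 38.4 RPM (next 30.3 RPM) and RTKN2 with 10.2 RPM (next 7.36 RPM) were both high in 73 dph female replicate 1. Low fish at 73 dph were male replicate 3 for Nfu_g_1_010728 (3.53 RPM, next 5.88 RPM) and male replicate 4 for HHIP (12.5 RPM, next 29.7 RPM). At 39 dph, NPY was low in female replicate 1 (23.7 RPM, next 71.2 RPM) and SOX1 high in female replicate 3 (30.2 RPM, next 24.1 RPM). At 108 dph, MSMO1 was high in male replicate 3 (46.5 RPM, next 32.6 RPM). Of these values, 7 belong to 73 dph, the age that enters both A and B.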

How the results depend on the processing

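The 331 genes that met the rule became 126 with B of at most -0.4, and 321 to 389 when 1 fish was left out. Of the 150 late fallers, 123 to 144 still met the rule without 1 fish, 82 did so in each of the 24 cases, and 111 did so with the mean in place of the median. These counts are before the limit to the 150 with the lowest B. After this limit, 101 to 133 late fallers stayed without 1 fish and 80 with the mean. With a level filter of 5 RPM, 89 of the 150 late fallers were left. TMM scaling moved the median B of all genes to -0.0036 and kept 146 late fallers before the limit and 140 after it. For the 34 named late fallers, B stayed below 0 in all 986 values under 29 alternatives of scale, pseudocount, averaging and fish. These genes were chosen for a low B, which made this likely beforehand, and nothing is read from it. The 83 late fallers called lower at 108 than at 73 dph became 47 at an FDR of 0.01 and 65 to 83 without 1 fish. The calls between 73 and 39 dph stayed at 1 and those between 108 and 39 dph at 99 to 107 without 1 fish. Of the named late fallers called lower at 108 than at 73 dph, FASN lost its call in 16 of 31 alternatives, MSMO1 in 11, SOX1 in 10, SH3BGR in 6, Nfu_g_1_022574 in 2 and RTKN2 in 1, while of those not called NCAN gained a call in 8, TRDN in 5, FABP7 in 4, FOS in 2 and GINS4 in 1. Between females and males, DESeq2 called 1 late faller, and leaving out fish gave 0 to 1. For the sex by late step and for sex at 108 dph, leaving out fish gave 0 in each case. No paired analysis was possible because the labels do not pair fish, and the replicate numbers only name them. The 2 shallowest libraries limit the depth at 39 dph, and without them 80 late fallers were called lower in the late step. Without these 2 libraries, 125 of the 150 late fallers still met the rule, and 124 stayed among the 150 with the lowest B.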
